A study of Arabidopsis thaliana with 4 samples.

Results

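The plastid genome of Arabidopsis thaliana carries, beside the genes of the photosynthetic machinery, genes for the plastid's own ribosome, RNA polymerase and transfer RNAs and for a few other proteins. These genes were examined in whole seedlings of the mutants hdp3-2 and asil1-2, 14 days old, each mutant set against wild type. Members were all genes of the plastid genome (locus names beginning with ATCG) whose name in the tables does not begin with PSA, PSB, PET, ATP, NDH or RBCL. The rule gave 91 of the 133 plastid genes, out of 33557 genes in all. They comprised 37 tRNA genes, 15 genes for small-subunit and 11 for large-subunit ribosomal proteins, 8 rRNA genes, 4 RNA polymerase genes, clpP, accD and matK, and 13 ycf and other reading frames. The rule is one of names, so that 3 members named YCF6, YCF9 and ORF31 in the tables are petN, psbZ and petL in RefSeq, which encode small subunits of photosynthetic complexes. Leaving them out changed no call.

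The study asked what a Harbinger transposase that has become a host protein, HDP3, and the trihelix DNA-binding factor ASIL1 do to gene expression. The first group was the mutant hdp3-2 (2 libraries), spelled hpd3-2 in the sample titles, and another was the mutant asil1-2 (2 libraries), both in the Col-0 background. Wild-type Col-0 was the reference in both of the authors' tables, but its libraries are not among the samples described here, and the labels give neither their number nor their age and growth conditions. Mutant seeds were kept at 4 °C for 3 days and grown on plates with 2% sucrose and 0.8% agar at 22 °C with 16 h of light and 8 h of dark. Total RNA came from 100 mg of seedlings; whether poly(A) RNA was selected or rRNA removed is not stated. How many plants a library pooled, and whether libraries were grown apart, is not stated either, so p-values measure the spread between these libraries only, which may be technical.

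Levels are FPKM, fragments scaled to transcript length and to the number mapped, with 1 authors' value for each genotype and none per library. The spread between libraries is therefore seen only through the authors' statistic, and sequencing depth is unknown. The authors' deposited table lists ASIL1 at 4.16 FPKM in asil1-2, against 22.9 FPKM in wild type. HDP3 itself was not analysed here. Transcripts of green tissue were abundant, with RBCS1A, a small subunit of Rubisco, at 8223 FPKM in hdp3-2 and 9134 FPKM in wild type. In hdp3-2 the 8 markers of green tissue, root and seed had q values of at least 0.132 in the authors' deposited table. In asil1-2 the root markers PRP3 (19.0 FPKM against 10.3 FPKM in wild type) and PRP1 (6.44 FPKM against 2.93 FPKM in wild type) were called higher, and the root marker IRT1 (3.71 FPKM against 7.57 FPKM in wild type) lower. The part of root tissue in the results was not tested. The summed FPKM of all genes was 4.47e+06 in hdp3-2, against 1.46e+06 in wild type, of which 7 genes above 100000 FPKM made up 3.54e+06 in hdp3-2 and 2 such genes 482837 in wild type. In asil1-2 the sum was 1.40e+06, against 1.48e+06 in wild type.

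Plastid genes descend from those of a cyanobacterium and are mostly transcribed in long groups. A plastid-encoded, bacterial-type polymerase, whose core subunits are RPOA, RPOB, RPOC1 and RPOC2, needs sigma factors made in the nucleus, and a nuclear-encoded phage-type polymerase transcribes other genes, among them rpoB. Transcripts are then cut, trimmed, spliced and edited by nuclear-encoded proteins. In leaves the plastid rRNAs are among the most abundant RNAs of the cell, and the ribosome they form makes the core proteins of photosynthesis.

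The RefSeq copy of the TAIR10 plastid genome is 154478 bp long, and 83 of the 91 loci had the same start and end there as in the authors' tables. It holds an inverted repeat of 26264 bp, at positions 84171 to 110434 and again at 128215 to 154478, so that genes in it exist as a pair of identical copies. Sequences from RefSeq of the members that the listed levels turn on read as follows, 5′ to 3′, with start and stop codons in capitals. RPS12 exon 1 (ATCG00065, positions 69611 to 69724, minus strand) and RPL36 (ATCG00760, 79489 to 79602, minus strand) were the shortest members with a level above 0. RPL33 (ATCG00640, 67488 to 67688, plus strand) and RPL32 (ATCG01020, 113449 to 113607, plus strand) were listed at 0 in wild type and above 0 in both mutants. TRNI.1 (86312 to 86385, minus strand) and TRNI.4 (152264 to 152337, plus strand) show what the repeat does to a sequence: their 74 bases are the same, so no read from them can be placed at only 1 locus. The exon 1 of RPS12 has no stop codon, because its RNA is joined to the other exons, encoded elsewhere in the plastid genome, by trans-splicing.
RPS12 exon 1: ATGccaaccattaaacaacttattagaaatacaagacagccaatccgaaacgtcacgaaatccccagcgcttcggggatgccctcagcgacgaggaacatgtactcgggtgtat
RPL36: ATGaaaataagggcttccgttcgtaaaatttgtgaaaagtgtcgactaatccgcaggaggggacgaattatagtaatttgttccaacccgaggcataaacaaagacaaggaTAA
RPL33: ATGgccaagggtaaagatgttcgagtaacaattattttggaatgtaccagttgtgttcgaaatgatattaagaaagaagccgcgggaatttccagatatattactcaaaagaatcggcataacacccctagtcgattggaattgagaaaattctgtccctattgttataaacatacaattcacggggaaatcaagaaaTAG
RPL32: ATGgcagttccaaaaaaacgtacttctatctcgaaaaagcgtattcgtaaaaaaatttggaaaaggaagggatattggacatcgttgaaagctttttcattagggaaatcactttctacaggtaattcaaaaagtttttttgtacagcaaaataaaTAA
TRNI.1: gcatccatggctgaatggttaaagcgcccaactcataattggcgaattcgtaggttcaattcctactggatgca
TRNI.4: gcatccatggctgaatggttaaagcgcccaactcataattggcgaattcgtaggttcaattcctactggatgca

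Of the 91 members, 34 had a level above 0 in some genotype and 57 were listed at 0 in every column. All 37 tRNA genes, with exons of 71 to 92 nt, were at 0 in both mutants and in wild type, 23 of them outside the inverted repeat. Of the 35 members that lie by at least 90% in the inverted repeat, 4 were above 0, and the highest value among them was 0.133 FPKM. Members of the repeat were thus at or near 0 in hdp3-2, asil1-2 and wild type. Outside the repeat, of 29 members that are not tRNA genes and have at least 120 nt of exon, 28 were above 0 in hdp3-2, 27 in asil1-2 and 26 in wild type. RPS16, a small-subunit protein gene of 240 nt, was at 0 in all of them. Of 23 such members of at least 300 nt, all 23 were above 0 in each genotype. Of the 4 members under 120 nt, RPS12 exon 1 and RPL36 were above 0 in hdp3-2 alone, while petN and petL were at 0 throughout. What the authors' programs did with reads that fit more than 1 place, or with fragments of very short transcripts, is not stated, and their part in these zeros was not tested.

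**Figure D1:**
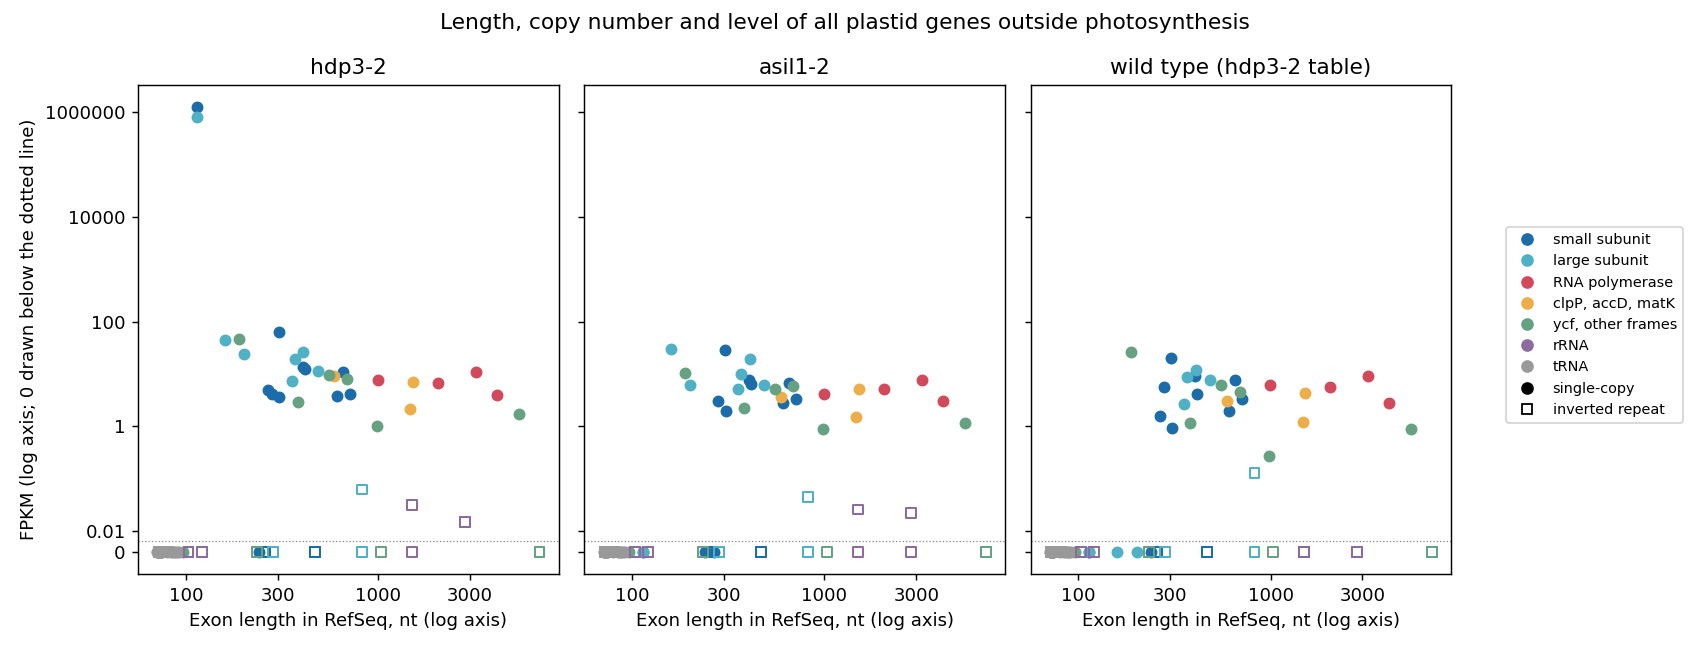
Level in FPKM (vertical log axis, with 0 drawn below the dotted line) against exon length in nt (horizontal log axis) for all members, in hdp3-2, asil1-2 and wild type. Points stand for genes coloured by class, with open squares for genes in the inverted repeat: all tRNA genes lie at 0, no inverted-repeat gene exceeds 0.133 FPKM, and RPS12 exon 1 and RPL36 lie far above the others in hdp3-2.

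The rRNA genes, which encode the RNA core of the ribosome, were at or near 0. RRN16S.1, the small-subunit rRNA gene in the first repeat copy, was listed at 0.0312 FPKM in hdp3-2, 0.0259 FPKM in asil1-2 and 0 in wild type. RRN23S.1 and RRN23S.2, the copies of the large-subunit rRNA gene, were each at 0.0150 FPKM in hdp3-2 and at 0 in wild type. In asil1-2 RRN23S.2 was at 0.0221 FPKM and RRN23S.1 at 0, and both were at 0 in wild type. Copies of 1 sequence thus carried different listed values, and the authors tested none of the 8 rRNA genes. Reads from identical copies cannot be told apart, so these values are uncertain. The only member of the repeat above 0 in wild type was RPL2.2, encoding a large-subunit protein, with 0.0623 FPKM in hdp3-2 against 0.130 FPKM in wild type. It had 0.0442 FPKM in asil1-2 against 0.133 FPKM in wild type, also without a test.

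In hdp3-2, 4 of the 29 tested members were called, where a call is an authors' q (p corrected over all tested genes) under 0.05, and all 4 were higher than in wild type. Over all genes, 3.08% were called, 263 of 20177 higher and 359 lower. The called members were RPL33, RPS14, CLPP1 and YCF1.2, which belong to 4 different classes. On the authors' scale, a positive log2 fold change was found for 25 of the 26 tested members above 0 in both genotypes, but for 5 of 26 once each column was divided by its summed FPKM over all genes. RPS19 was the one with a negative value. The median was 0.83, against −0.065 over all tested genes, of which 8317 of 20132 were positive. Division by the sum of all genes moved every log2 value in hdp3-2 by −1.62, which took the members' median and that of each class below 0. The median of all tested genes moved by the same −1.62, so the gap between it and the members' median stayed as it was. RPS12 exon 1 and RPL36, members themselves, are part of that sum. Division by the sum of nuclear genes moved every log2 value by −0.54. This left 18 of 26 members positive and took the RNA polymerase genes alone below 0 at the median. An unadjusted p under 0.05 was found for 13 of the 29 members, all higher in hdp3-2, and for 12.9% of all tested genes. A change of scale moves all genes alike, and with values centred on the median of all tested genes the members' median was 0.90. Which scale holds for these libraries was not tested, and the sign of single members depends on it. In whole seedlings, more cells rich in plastids and more plastid RNA per cell cannot be told apart. A difference in how the wild-type libraries were grown or prepared cannot be told apart from genotype either, since the labels give neither.

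In asil1-2, 0 of the 28 tested members were called by the authors' Cuffdiff test, where 8.42% of all tested genes were called. An unadjusted p under 0.05 was found for 4 members, against 20.1% of all tested genes. RPL33, RPL32 and YCF5 were higher in asil1-2 among these, and RPOA was lower. Of 25 tested members above 0 in both genotypes, 15 had a higher level in asil1-2 and 10 a lower one. Over all tested genes above 0 in both genotypes, 8006 of 20172 were higher. The members' median log2 fold change was 0.18, against −0.081 over all tested genes. Division by the sum of nuclear genes moved every log2 value in asil1-2 by 0.38, after which 22 of 25 were positive. The sum of genes under 100000 FPKM moved every log2 value in asil1-2 by only 0.11. The comparisons share their wild-type samples.

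**Figure D2:**
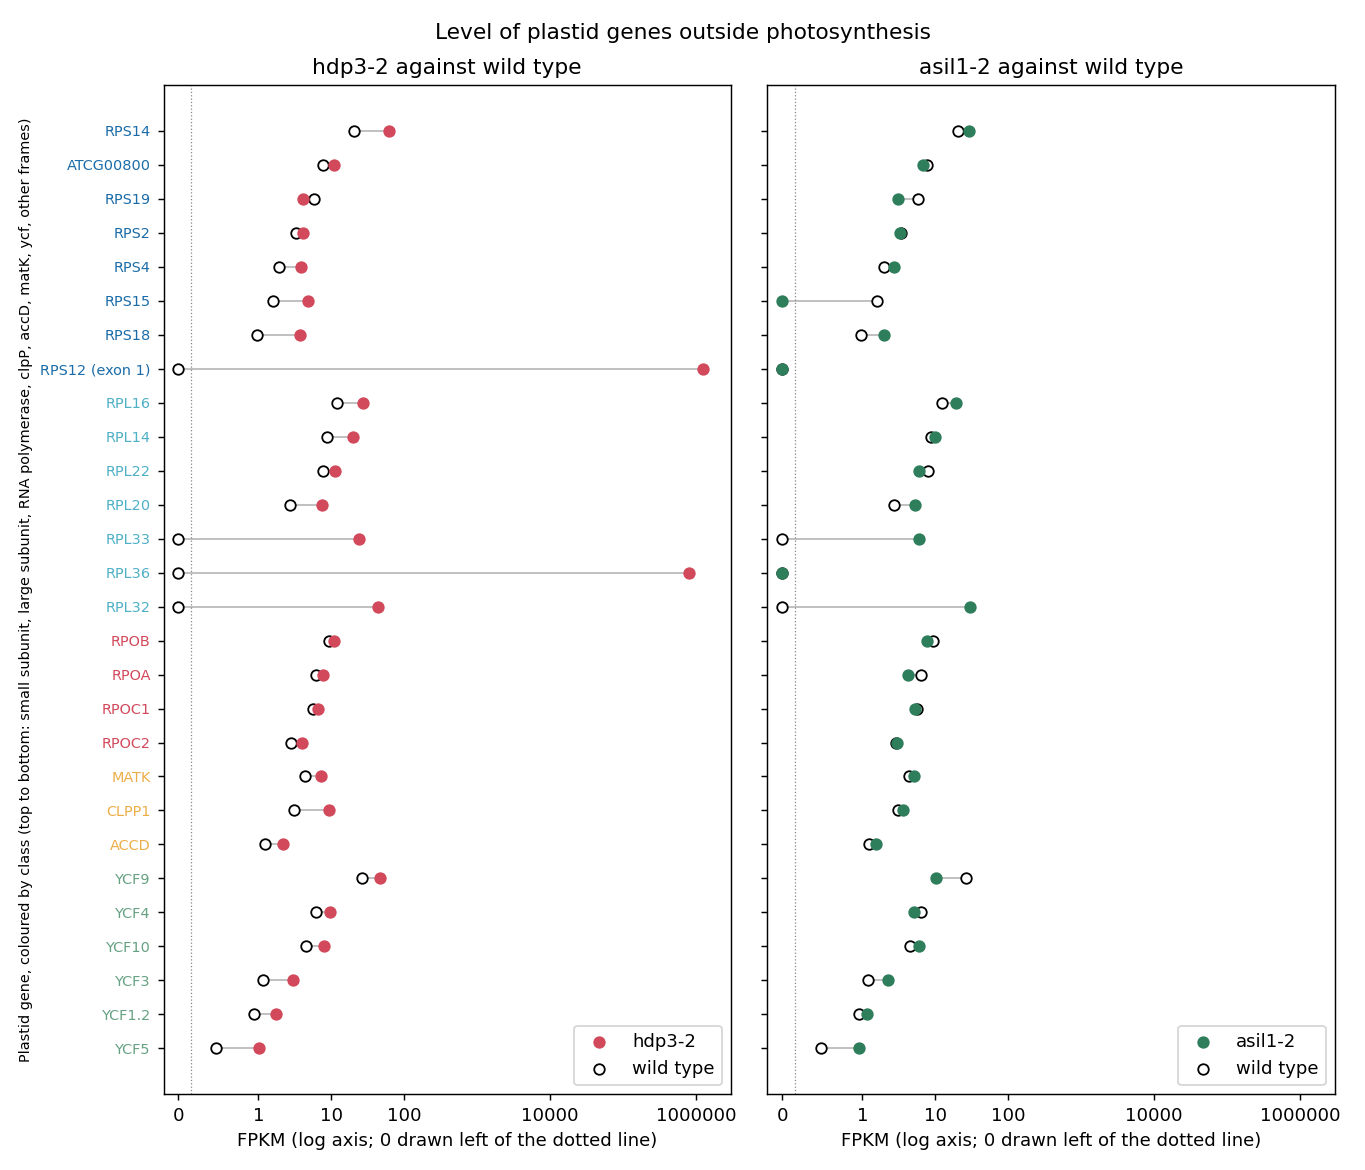
Level in FPKM (horizontal log axis, with 0 drawn left of the dotted line) of 28 members above 0 outside the inverted repeat, in hdp3-2 (left panel, red), in asil1-2 (right panel, green) and in wild type (open circles), 1 authors' value each. The mutant point lies right of the wild-type point for all but RPS19 in hdp3-2 on the authors' scale, and on either side in asil1-2. RPS12 exon 1 and RPL36 reach 1.24e+06 and 808270 FPKM in hdp3-2. The members' median in hdp3-2 turned on division by the summed FPKM of all genes, which includes these values.

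The ribosomal proteins of the small subunit bind the 16S rRNA and take part in decoding. RPS14 had the highest wild-type level of them, with 62.5 FPKM in hdp3-2 and 20.2 FPKM in wild type. Its log2 fold change was 1.63 ± 0.57 (SE), called higher with q = 0.0353 in the authors' deposited table. In asil1-2 RPS14 had 28.9 FPKM, against 20.6 FPKM in wild type, which was not called (q = 0.536 in the authors' deposited table). It lies downstream of the photosystem I genes psaA and psaB, with which plastids usually cotranscribe it. RPS18 had the lowest wild-type level of the class and the largest fold change, 3.72 FPKM in hdp3-2 against 0.946 FPKM in wild type, but its SE of 2.29 exceeded the log2 fold change of 1.98. In asil1-2 RPS18 was at 1.99 FPKM, against 0.964 FPKM in wild type, with a log2 fold change of 1.05 ± 2.42 (SE). RPS19, which lies with 40.5% of its length in the inverted repeat, was the single tested member with a negative value in hdp3-2. It had 4.15 FPKM in hdp3-2 and 5.76 FPKM in wild type, a log2 fold change of −0.47 ± 0.90 (SE). Its asil1-2 level was 3.10 FPKM, against 5.87 FPKM in wild type. Neither difference exceeded its SE.

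Of the other small-subunit genes, RPS4, an early-binding protein of ribosome assembly in bacteria, had 3.83 FPKM in hdp3-2 and 1.93 FPKM in wild type. RPS2 had 4.14 FPKM in hdp3-2 and 3.29 FPKM in wild type. Neither passed the test. The gene listed only by its locus, ATCG00800, is rps3 in RefSeq and overlaps the end of RPL22, so reads in the overlap cannot be assigned to 1 of them. It had 11.0 FPKM in hdp3-2 and 7.66 FPKM in wild type. RPS15, of 267 nt, was the only member above 0 in wild type and at 0 in a mutant, and is named for that after its values were seen. It was listed at 0 in asil1-2 and at 1.61 FPKM in wild type (p = 0.0771, q = 0.317 in the authors' deposited table), and at 4.86 FPKM in hdp3-2 and 1.58 FPKM in wild type. Over the class, 8 of 9 log2 fold changes were positive in hdp3-2, with a median of 0.98 that became −0.63 on division by the summed FPKM of all genes. In asil1-2 it was 4 of 8, with a median of 0.23 that became −0.019 with a pseudocount of 1 FPKM added to each value.

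The large-subunit proteins surround the 23S rRNA, where peptide bonds are formed. RPL33, which plants can lose without losing plastid translation under normal growth as shown in tobacco, was listed at 23.6 FPKM in hdp3-2 against 0 in wild type, with p = 0.00015 and q = 0.00888 in the authors' deposited table. The asil1-2 value was 6.04 FPKM, against 0 in wild type, with q = 0.170 in the authors' deposited table. RPL32, needed for plastid translation in tobacco, was at 44.1 FPKM in hdp3-2, 29.8 FPKM in asil1-2 and 0 in wild type. It was not called in either (q = 0.195 for hdp3-2 and q = 0.194 for asil1-2 in the authors' deposited table). No fold is given against a value listed at 0. RPL33 of 201 nt and RPL32 of 159 nt lay among the 6 single-copy members from 120 nt to under 300 nt, in which zeros and levels such as these stood side by side, whereas all 23 longer ones were above 0 in every genotype. How far their annotated length bears on the zeros was not tested.

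RPL16 had the highest wild-type level of the large-subunit genes, with 26.8 FPKM in hdp3-2 and 12.0 FPKM in wild type, a log2 fold change of 1.15 ± 0.50 (SE), q = 0.0713 in the authors' deposited table. In asil1-2 RPL16 had 19.3 FPKM, against 12.3 FPKM in wild type. RPL20, whose gene lies next to RPS18 on the other strand, had the largest value, 7.43 FPKM in hdp3-2 against 2.70 FPKM in wild type, a log2 fold change of 1.46 ± 1.04 (SE). It had 5.26 FPKM in asil1-2 against 2.75 FPKM in wild type. RPL14 had 19.7 FPKM in hdp3-2 and 8.64 FPKM in wild type, and RPL22 had 11.4 FPKM in hdp3-2 and 7.75 FPKM in wild type. In asil1-2 RPL22 was below wild type, with 6.08 FPKM against 7.90 FPKM in wild type. None of these passed the test. The class median log2 fold change over the 5 genes above 0 in both genotypes, the untested RPL2.2 included, was 1.15 in hdp3-2 and 0.18 in asil1-2. Over the 4 tested ones it was 1.17 in hdp3-2, −0.45 there on division by the summed FPKM of all genes, and 0.42 in asil1-2.

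RPS12 exon 1 and RPL36 had listed values of another order. RPS12 exon 1 was at 1.24e+06 FPKM in hdp3-2 and at 0 in wild type, and the authors did not test it. RPL36 was at 808270 FPKM in hdp3-2 and at 0 in wild type (q = 0.557 in the authors' deposited table). Both were at 0 in asil1-2 and in its wild-type column. Both annotated exons are 114 nt long, whole in the sequences given above, and the part of that length in the values was not tested. Of the 7 genes above 100000 FPKM in hdp3-2, 3 were plastid genes. The 26 tested members with values in both genotypes, by contrast, summed to 303 FPKM in hdp3-2 and 158 FPKM in wild type, and the 25 in asil1-2 to 158 FPKM in asil1-2 against 159 FPKM in wild type.

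The 4 core subunits of the plastid-encoded polymerase had the smallest median log2 fold change of the 5 classes with tested members in hdp3-2. Of them, 0 were called in either mutant by the authors' Cuffdiff test, and 1 had an unadjusted p under 0.05 in each. RPOB, the subunit that with RPOC1 and RPOC2 forms the catalytic core, had 11.0 FPKM in hdp3-2 and 9.19 FPKM in wild type, a log2 fold change of 0.27 ± 0.29 (SE). RPOC1 had 6.60 FPKM in hdp3-2 and 5.54 FPKM in wild type. RPOC2 had 3.92 FPKM in hdp3-2 and 2.81 FPKM in wild type, with p = 0.0413 and q = 0.354 in the authors' deposited table. RPOA, the subunit on which the core assembles in bacteria, had 7.68 FPKM in hdp3-2 and 6.19 FPKM in wild type. All 4 values were positive in hdp3-2 on the authors' scale, with a median of 0.29, but none was on division by the summed FPKM of nuclear genes, where the median was −0.25. The sum of genes under 100000 FPKM moved hdp3-2 values by 0.070 instead, which left all 4 positive. In asil1-2 RPOA had 4.21 FPKM, against 6.30 FPKM in wild type, a log2 fold change of −0.58 ± 0.39 (SE), with p = 0.0418 and q = 0.224 in the authors' deposited table. RPOB had 7.78 FPKM in asil1-2 against 9.36 FPKM in wild type, and RPOC1 5.26 FPKM in asil1-2 against 5.65 FPKM in wild type. RPOC2 was nearly level, with 2.99 FPKM in asil1-2 against 2.86 FPKM in wild type. The class median in asil1-2 was −0.19 on the authors' scale and 0.20 on division by the summed FPKM of nuclear genes. The sum of genes under 100000 FPKM moved asil1-2 values by 0.11. These are long genes, with 990 to 4131 nt of exon, and their SEs were the smallest of any class, with a median of 0.33 in hdp3-2 and 0.30 in asil1-2.

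Genes that neighbour each other were also read as groups. RPOB, RPOC1, RPOC2 and RPS2, which follow each other on the minus strand, had a median log2 fold change of 0.30 in hdp3-2 and −0.065 in asil1-2. The 9 genes from RPOA to RPS19, mostly ribosomal protein genes in a run shared with bacteria, had a median of 0.54 over 8 genes in hdp3-2 and −0.26 in asil1-2. Genes of 1 group can share a transcript and are not separate observations. Across the 26 tested members the log2 fold change in hdp3-2 had a Spearman rho of −0.44 with exon length and −0.38 with the wild-type level, and in asil1-2, over 25, −0.057 and −0.59. These are descriptions across genes that share libraries, and the wild-type level also enters the fold change.

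Of the 3 remaining protein genes with enzymatic roles, CLPP1 was called in hdp3-2. It encodes a proteolytic subunit of the Clp protease of the stroma and is essential in tobacco. CLPP1 had 9.33 FPKM in hdp3-2 and 3.08 FPKM in wild type, a log2 fold change of 1.60 ± 0.58 (SE), q = 0.0420 in the authors' deposited table. In asil1-2 it had 3.56 FPKM, against 3.14 FPKM in wild type. ACCD, a subunit of the plastid acetyl-CoA carboxylase that starts fatty acid synthesis, had 2.16 FPKM in hdp3-2 and 1.22 FPKM in wild type. Its asil1-2 level was 1.54 FPKM, against 1.24 FPKM in wild type. MATK, the maturase encoded within the intron of a lysine tRNA gene, had 7.11 FPKM in hdp3-2 and 4.30 FPKM in wild type. The asil1-2 level of MATK was 5.17 FPKM, against 4.38 FPKM in wild type. ACCD and MATK were not called, with q = 0.304 and q = 0.146 for hdp3-2 in the authors' deposited table. The MATK span lies within that of the tRNA gene TRNK, itself listed at 0.

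Among the ycf genes and other reading frames, 6 of 13 were above 0 in each genotype, all outside or mostly outside the inverted repeat. YCF1.2, the longest of them with 5361 nt and a subunit of the protein import machinery of the inner envelope, was called in hdp3-2. It had 1.72 FPKM in hdp3-2 and 0.883 FPKM in wild type, a log2 fold change of 0.96 ± 0.37 (SE), q = 0.0340 in the authors' deposited table. The start of the gene on its minus strand, 19.2% of its length, lies in the inverted repeat, and the matching fragment YCF1.1 was at 0 in all genotypes. In asil1-2 YCF1.2 had 1.16 FPKM, against 0.899 FPKM in wild type. YCF5, which RefSeq names ccsA and which acts in the maturation of c-type cytochromes, had the lowest wild-type level and the largest fold change of the class in both mutants. It had 1.02 FPKM in hdp3-2 and 0.266 FPKM in wild type, a log2 fold change of 1.94 ± 1.08 (SE). In asil1-2 YCF5 had 0.910 FPKM, against 0.271 FPKM in wild type, a log2 fold change of 1.75 ± 1.11 (SE). Neither was called, with q = 0.309 for hdp3-2 and q = 0.228 for asil1-2 in the authors' deposited table.

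YCF9, psbZ of photosystem II, had the highest wild-type level of all members. It had 46.9 FPKM in hdp3-2 and 26.2 FPKM in wild type, a log2 fold change of 0.84 ± 0.73 (SE), but 10.2 FPKM in asil1-2 against 26.7 FPKM in wild type, a log2 fold change of −1.38 ± 1.51 (SE). This reading frame of 189 nt had one of the larger SEs, and neither value was called. YCF3 and YCF4 encode assembly factors of photosystem I, and YCF10, cemA in RefSeq, an envelope protein. YCF3 had 2.97 FPKM in hdp3-2 and 1.17 FPKM in wild type, YCF4 had 9.49 FPKM in hdp3-2 and 6.19 FPKM in wild type, and YCF10 had 7.98 FPKM in hdp3-2 and 4.48 FPKM in wild type. All 6 reading frames had positive log2 fold changes in hdp3-2, with a median of 0.90 that became −0.72 on division by the summed FPKM of all genes. In asil1-2 4 of 6 were positive, with a median of 0.38. YCF2.1 and YCF2.2, large frames in the inverted repeat with 6885 nt each, were at 0 in all genotypes, as were ORF77.1 and ORF77.2.

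**Figure D3:**
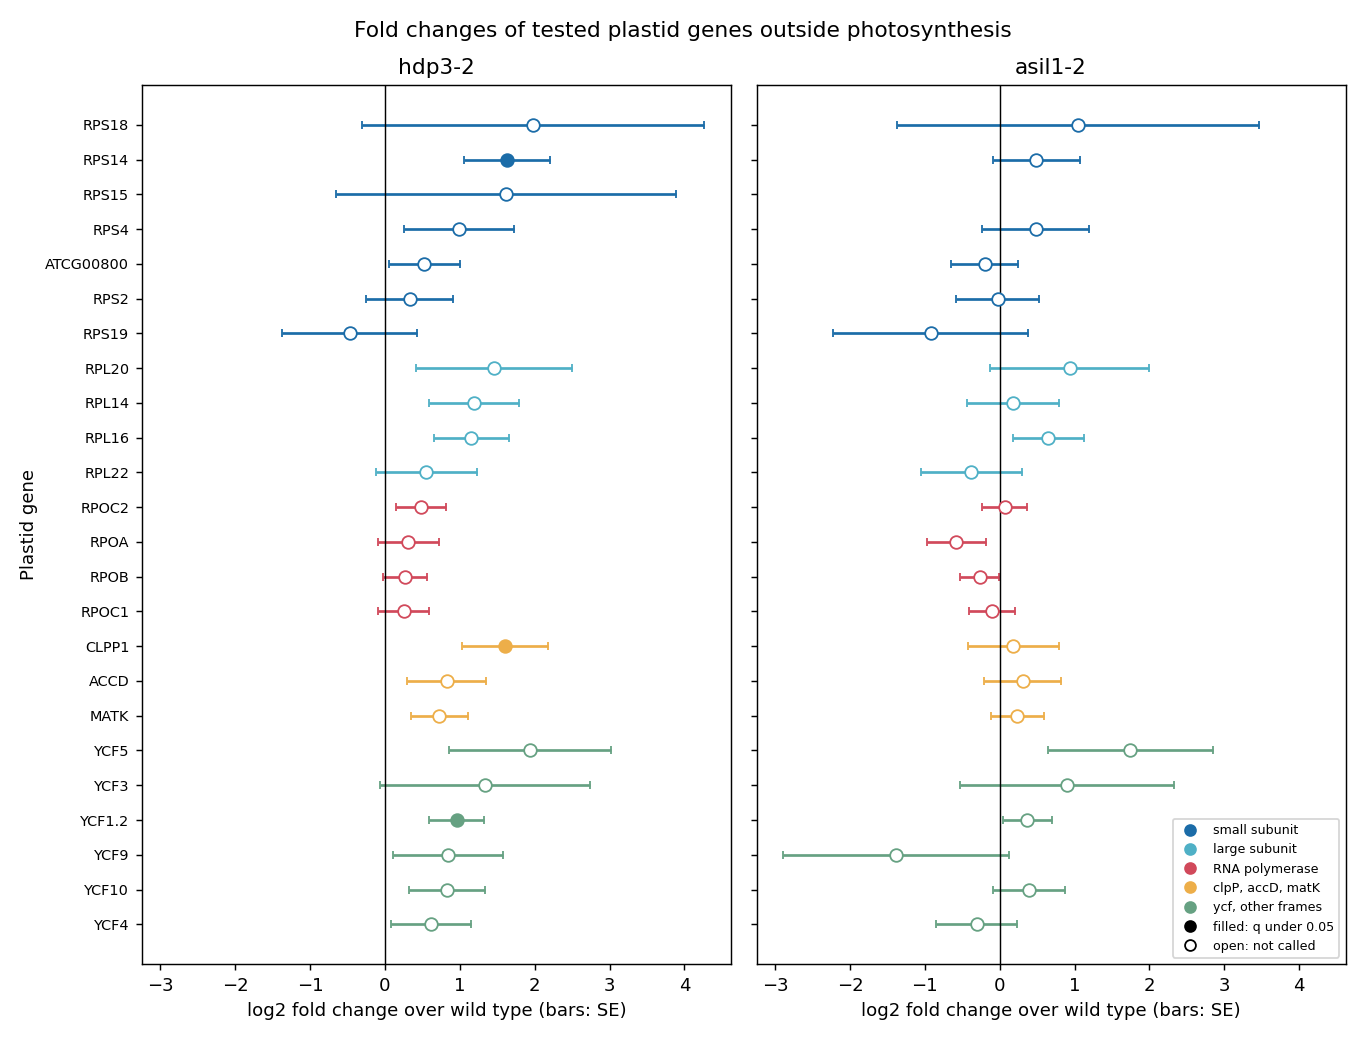
log2 fold change over wild type (horizontal axis, bars ± SE from the authors' statistic) of the tested members above 0 in both genotypes, coloured by class, in hdp3-2 (left, 24 genes drawn) and asil1-2 (right, 23 genes drawn, RPS15 being at 0 there). Filled points (RPS14, CLPP1 and YCF1.2 in hdp3-2) have a q under 0.05. In hdp3-2 23 of 24 points lie right of 0, and in asil1-2 14 of 23. Division by the summed FPKM of all genes, which lowers every gene alike, turns the members' median in hdp3-2 negative. With genes above 100000 FPKM left out of the sum, that median is 0.90.

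The mutants' fold changes were also set against each other. For all 25 members tested in both tables, the log2 fold change in hdp3-2 exceeded that in asil1-2, by 0.19 to 2.22 with a median of 0.53, against 0.034 over 19977 genes. A z test of each difference called 0 of 25 members (smallest adjusted p 1.00) and 0.130% of all genes. At an unadjusted p under 0.05 it found 0 members and 1.72% of all genes. The test is conservative, because both fold changes contain the same wild type and because the SEs are larger than the authors' p implies. The z implied by that p was 1.41 times the statistic in hdp3-2 and 1.42 times in asil1-2, at the median of all genes. With the summed variance multiplied by 0.5 the test still called 0 members, and 0.626% of all genes. That factor does not separate the reasons. No member was therefore shown to differ between hdp3-2 and asil1-2, and none was shown to be alike. The sign that all 25 share comes from genes measured in the same libraries and on each table's own scale.

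Other organelle genes also had positive medians in hdp3-2 on the authors' scale. Of the plastid genes for photosynthesis, 11 of 30 tested genes were called, all higher, and the median log2 fold change was 0.95, or −0.66 on division by the summed FPKM of all genes. Of the mitochondrial genes 2 of 24 were called, both higher, and the median was 1.69, or 0.075 on that division. In asil1-2 the authors' Cuffdiff test called 0 of 30 photosynthesis genes and 0 of 16 mitochondrial genes, with 2 and 0 at an unadjusted p under 0.05, and the medians were 0.10 and 0.091. The difference between the members and these groups was not tested.

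**Figure D4:**
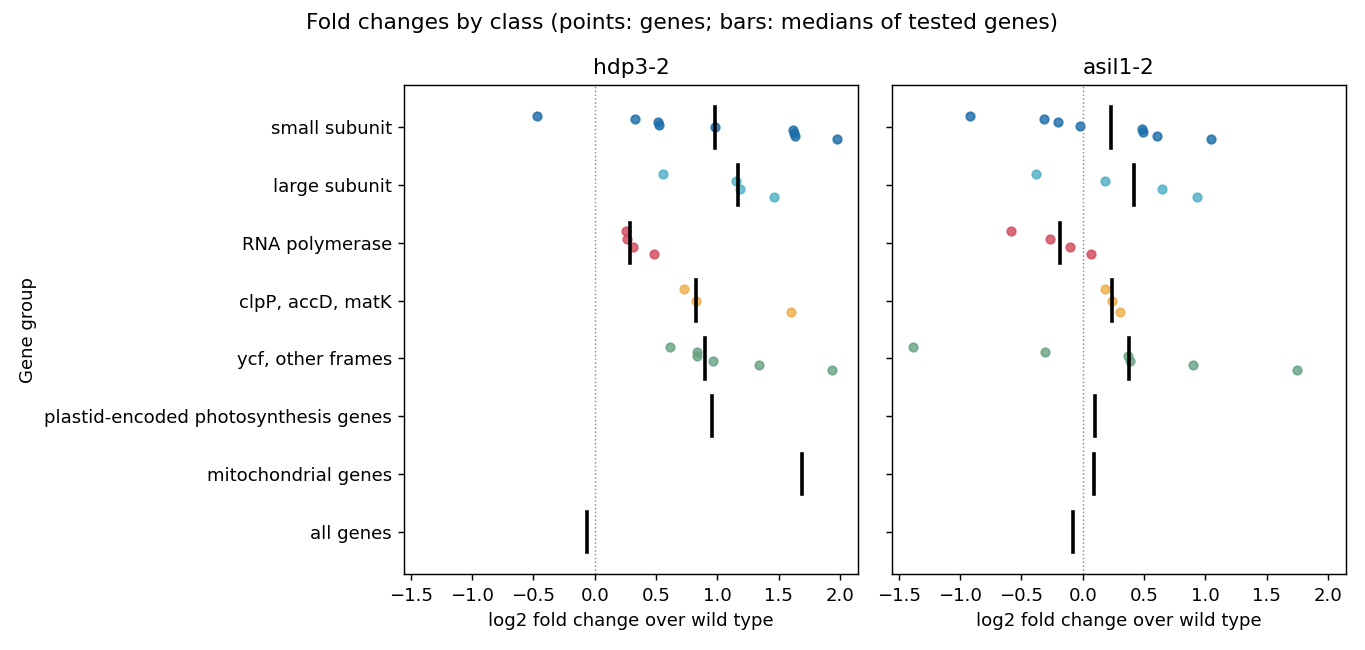
log2 fold change over wild type (horizontal axis) by gene class in hdp3-2 (left) and asil1-2 (right), with points for single tested members and bars for medians of the tested genes, and medians alone for plastid photosynthesis genes, mitochondrial genes and all genes. In hdp3-2 the RNA polymerase genes have the lowest class median, 0.29, and the large-subunit ribosomal proteins the highest, 1.17, all on the authors' scale. Each class median of the members in hdp3-2 is below 0 on division by the summed FPKM of all genes, RPS12 exon 1 and RPL36 included. That division lowers the median of all genes by the same amount. In asil1-2 the medians lie between −0.19 and 0.42.

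Nuclear genes that serve the plastid genome were read from 5 lists of 68 genes in all, each of which the authors tested. In hdp3-2, 0 of the 68 were called by the Cuffdiff test, with 9 at an unadjusted p under 0.05, where 3.08% and 12.9% of all tested genes were. In asil1-2 2 of the 68 were called, both lower, with 16 at an unadjusted p under 0.05, where 8.42% and 20.1% of all tested genes were. Both called genes were sigma factors, which direct the plastid-encoded polymerase to its promoters. SIG5, a sigma factor induced by stress and blue light, had 28.0 FPKM in asil1-2 against 58.7 FPKM in wild type, a log2 fold change of −1.07 ± 0.24 (SE), q = 0.00165 in the authors' deposited table. SIG1 had 96.5 FPKM in asil1-2 against 152 FPKM in wild type, a log2 fold change of −0.66 ± 0.24 (SE), q = 0.00303 in the authors' deposited table. In hdp3-2 SIG5 and SIG1 were not called (log2 fold changes of −0.53 and −0.22, with q = 0.143 and q = 0.755 in the authors' deposited table). All 8 genes of the list of sigma factors and phage-type polymerases had negative log2 fold changes in asil1-2 on the authors' scale, with a median of −0.44. Over all tested genes, 12166 of 20172 were negative, with a median of −0.081. Division by the sum of nuclear genes would raise the list's median by 0.38, and by that of genes under 100000 FPKM by 0.11. In hdp3-2 5 of 8 were positive, with a median of 0.052, beside 8317 of 20132 positive over all tested genes.

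The other lists had 0 genes called in either mutant by the authors' Cuffdiff test, with 8 genes at an unadjusted p under 0.05 in hdp3-2, beside 12.9% of all tested genes, and 10 in asil1-2, beside 20.1%. The 12 proteins associated with the plastid-encoded polymerase had a median log2 fold change of −0.16 in hdp3-2 and −0.24 in asil1-2. The 31 nuclear-encoded ribosomal proteins of the plastid, partners of the ribosomal members above, had a median of −0.17 in hdp3-2, with 7 of 31 positive. In asil1-2 their median was −0.035, with 11 of 31 positive. Over all tested genes, 8317 of 20132 were positive in hdp3-2 and 8006 of 20172 in asil1-2. Partners of CLPP1 and ACCD, 13 genes, had medians of −0.030 in hdp3-2 and −0.12 in asil1-2. The 4 plastid RNA decay enzymes had medians of 0.27 in hdp3-2 and −0.092 in asil1-2. In hdp3-2 the plastid-encoded and nuclear-encoded ribosomal proteins thus had median values of opposite sign on the authors' scale, 1.15 over the 13 tested plastid-encoded ones and −0.17, and dividing by the summed FPKM of all genes, which lowers every log2 value alike, leaves the gap between them as it is.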

How the data were processed

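RNA from whole seedlings of hdp3-2 and asil1-2 was sequenced in 2 libraries each, and the authors deposited 2 tables in the Cuffdiff layout, 1 per mutant. TopHat2, Cufflinks, Cuffdiff and deepTools and the build TAIR10 are named in the submitters' processing notes, without versions, options or roles. The deposited FPKM values, fragments scaled by the authors to transcript length and mapped fragments, are 1 per genotype and table. The score column holds the authors' test statistic, and the p-value and q-value columns their p and corrected p, per the file headers. No counts are used here, and depth is unknown.

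Log2 fold changes were taken from the FPKM values where both were above 0, and each SE by dividing the log2 fold change by the authors' statistic. The z value implied by the authors' p was 1.39 times their statistic at the median of the 26 members in hdp3-2, so these SEs are larger than p implies. A gene was called where tested with q under 0.05. The mutants were compared by a z test of the log2 fold changes over 19977 genes with Benjamini-Hochberg adjustment, run also on simulated data. The simulation drew fold changes independently, without a shared wild type, and with differences larger than the members' median. It therefore does not check the test in the setting of these data. Copies were sought with blastn 2.17.0 at 95% identity and 90% coverage: 6 members have one in the mitochondrial genome and 8 in a nuclear chromosome. RPS2 is among the 8, and the rest of them are tRNA genes.

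The members, lists and alternatives were chosen with earlier results of these data known. Named were all called members, the extremes of level and fold change of each class, all RNA polymerase, clpP, accD, matK and rRNA genes, and members at 0 in wild type and above 0 in a mutant. Other members are given for completeness, except 2 that are not reported here by name and are left out of the plots with gene labels. Alternatives were a stricter q, a minimum fold change, FPKM minimum, pseudocount, centring, other scalings, recomputed adjustment, leaving out copies or members with under 300 nt of exon, and a normal reading of the statistic. The work used matplotlib 3.10.9, SciPy 1.17.1, NumPy 2.4.6, pandas 2.3.3 and Python 3.11.15.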

Additional observations from a re-analysis of the deposited data

Results flagged for a closer look

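Some members had a level in a mutant without a test by the authors, where wild type was listed at 0. RPS12 exon 1 was listed at 1.24e+06 FPKM in hdp3-2 and at 0 in wild type. RRN16S.1 was listed at 0.0312 FPKM in hdp3-2 and 0.0259 FPKM in asil1-2, and at 0 in wild type. RRN23S.1 was at 0.0150 FPKM in hdp3-2 and at 0 in wild type, and RRN23S.2 at 0.0150 FPKM in hdp3-2 and 0.0221 FPKM in asil1-2, and at 0 in wild type. No difference between the genotypes was tested for these genes.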

How the results depend on the processing

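Of the 4 members called in hdp3-2, 1 (RPL33) was called at a q under 0.01 and 2 with FPKM of at least 1 in both genotypes. When the authors' statistic was read as normal, 0 were called. RPL33 has no statistic and was left out there. The adjusted p of this reading was 0.291 for RPS14, 0.324 for CLPP1 and 0.428 for YCF1.2. The z implied by the authors' p was 1.41 times their statistic at the median of all genes in hdp3-2. This reading therefore gives larger p-values than theirs and cannot test how firm the calls are. The other alternatives left 3 or 4. In asil1-2 0 members were called under every alternative run. The members' median log2 fold change in hdp3-2, 0.83, was −0.79 when each column was divided by the summed FPKM of all genes. It was 0.29 when divided by that of nuclear genes. These divisions moved the median of all tested genes by −1.62 and −0.54. Divided by the sum of genes under 100000 FPKM, an alternative chosen after seeing the data, the members' median was 0.90. In asil1-2 the members' median ranged from 0.12 to 0.56, the small-subunit median was −0.019 with a pseudocount of 1 against 0.23, and RPS2 was at 0.056 after centring against −0.025; the cause was not tested. With at least 1 FPKM in the mutant, 4 of 7 members at 0 in wild type were above 0 in hdp3-2 and 2 of 4 in asil1-2. No paired analysis was possible because the tables hold 1 value per genotype, and for the same reason no library could be left out. Depth is unknown, so a member listed at 0 cannot be told from one below detection. Over the fold changes of single genes, counted once per gene, mutant and alternative, 248 values kept sign and side of the threshold, 6 (RPS14, CLPP1 and YCF1.2 at the stricter q and at the normal reading) lost the call and 1 changed sign.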
